A study of Mus musculus with 6 samples.

Results

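The genes of 8 transcription factors of the endoderm were followed in E9.5 mouse embryos that lacked the reduced folate carrier RFC1. Their differences were set beside those of secreted proteins of yolk sac and liver, which include textbook targets of such factors. The 8 factor genes were *Gata4*, *Gata6*, *Foxa1*, *Foxa2*, *Foxa3*, *Sox17*, *Hnf4a* and *Hhex*. Every probe set annotated to one of these symbols alone was taken, which gave 15 probe sets for the 8 genes, of 45101 probe sets and 18194 genes with a symbol of their own on the array. Whole embryos were hybridized singly to Affymetrix arrays of the whole mouse genome, with 3 RFC1-/- embryos and 3 RFC1+/+ embryos taken as littermate pairs from 3 litters. The RFC1-/- embryos carried the inactivated *Slc19a1* allele in both copies and were described as having craniorachischisis with an unfused chorioallantois, and the RFC1+/+ littermates were described as normal. The mutation had been moved from C57BL/6J onto the SWV strain, the dams were heterozygous, and all dams, those of the RFC1+/+ embryos included, had received 25 mg/kg folic acid daily from E0.5. Extraembryonic membranes had been removed for genotyping, and no yolk sac was measured apart.

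GATA, forkhead (FOXA), SOX and HNF4 proteins form the regulatory circuit that specifies endoderm. GATA6, GATA4 and SOX17 act early in primitive endoderm, which gives rise to the visceral endoderm of the yolk sac, and HNF4A then drives the genes of its absorptive and secretory epithelium, among them apolipoproteins and carriers of plasma. FOXA proteins open chromatin at these genes in visceral endoderm, gut and liver. Most of the 8 are not restricted to endoderm: *Gata4* and *Gata6* are also active in the heart, *Foxa2* and *Foxa1* in the notochord and floor plate, and *Sox17* and *Hhex* in blood vessels.

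Values were log2 expression levels from robust multiarray averaging (RMA), and differences were RFC1-/- minus RFC1+/+ within a litter. Array medians lay between 5.43 and 5.49. Arrays give no read depth, so that their number limits the precision. *Slc19a1* itself measured, on 1420138_at, 9.97, 10.10 and 9.84 in the RFC1-/- embryos of litters 1, 2 and 3, against 9.11, 9.10 and 8.89 in the RFC1+/+ embryos. Its log2 difference was 0.93 there and 1.19 on 1448132_at, and 0.02 on 1449744_at, where all embryos lay under the yardstick of dim signal. No source used here names the deleted part of the gene, and probe sets outside it check nothing, so the genotypes rest on the labels. That yardstick comes from odorant receptors: the 44 probe sets of odorant receptor genes had a median level of 3.92 and a 95th percentile of 5.14.

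All 8 endoderm factor genes were higher in RFC1-/- embryos. In a limma fit blocked by litter, with each gene on its brightest probe set, all 8 rose at an adjusted p under 0.05, where 3.67% of all genes rose and 1.65% fell. The 3 RFC1-/- embryos also lay above the 3 RFC1+/+ embryos without overlap for all 8 genes, where 12.8% of all genes did so and 13.4% lay the other way. Their log2 differences ran between 0.52 for *Gata6* and 1.81 for *Hnf4a*, with a median of 1.06, against a median of -0.01 over all genes. *Foxa1*, *Sox17* and *Hhex* were the 3 genes still called without litter 1, where *Hnf4a*, *Foxa2* and *Foxa3* had limma adjusted p-values of 0.0502, 0.0700 and 0.217. Without litter 2, 5 genes were called, these 3 with *Foxa2* and *Hnf4a*, and without litter 3 all 8. Of all 18194 genes, 238, 523 and 867 rose without litters 1, 2 and 3. Adjusted over all probe sets in place of genes, a setting chosen after the values were seen, 6 genes were called, and *Hnf4a* (adjusted p = 0.0517 from limma) and *Foxa3* (adjusted p = 0.0637 from limma) were not. In that setting 538 of all 18194 genes rose. In whole embryos, more cells of a type and more RNA in each cell cannot be told apart.

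**Figure D1:**
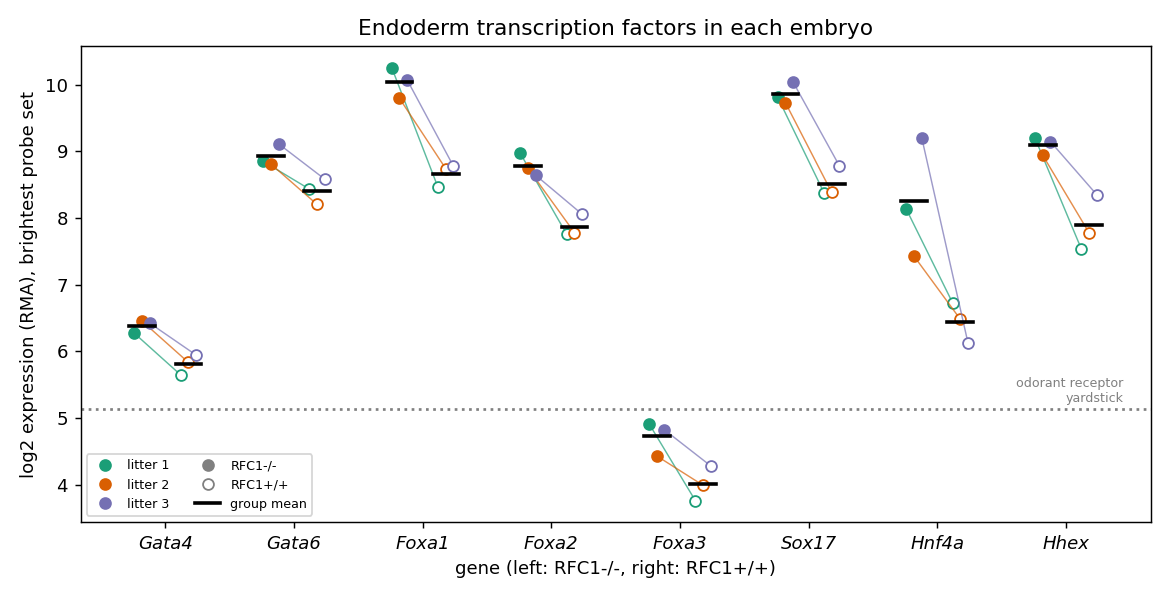
Log2 expression on the brightest probe set (y axis) of each gene (x axis), with RFC1-/- embryos as filled points on the left and RFC1+/+ embryos as open points on the right, joined within litters. Black bars are group means and the dotted line is the 95th percentile of odorant receptor probe sets (5.14), and the groups do not overlap for any of the 8 genes.

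Among the forkhead factors, *Foxa1* and *Foxa2* lay above the yardstick and *Foxa3* did not. *Foxa1*, a pioneer factor that binds closed chromatin, measured 10.26, 9.80 and 10.07 in the RFC1-/- embryos of litters 1, 2 and 3, against 8.46, 8.74 and 8.78 in the RFC1+/+ embryos. The lowest RFC1-/- embryo, that of litter 2, lay well above the highest RFC1+/+ embryo. *Foxa1* was 2.61-fold higher (1.38 ± 0.15 on the log2 scale, SE, limma adjusted p = 0.00798), and 0.64% of all genes had a larger rise. *Foxa2*, which is needed for node, notochord and endoderm formation, measured 8.97, 8.74 and 8.64 in RFC1-/- embryos and 7.76, 7.78 and 8.06 in RFC1+/+ embryos. It was 1.89-fold higher (0.92 ± 0.14 on the log2 scale, SE, limma adjusted p = 0.0163), with the smallest gap in litter 3. *Foxa3*, the family member most restricted to endoderm and liver, measured 4.91, 4.43 and 4.82 in RFC1-/- embryos and 3.76, 3.99 and 4.28 in RFC1+/+ embryos, with every embryo of both groups under the odorant receptor yardstick. Its log2 difference was 0.71 (SE 0.15, limma adjusted p = 0.0489), and no fold is given because neither group was shown to lie above background.

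The GATA genes had the smallest differences of the 8. *Gata6*, the earliest factor of primitive endoderm, measured 8.85, 8.81 and 9.12 in RFC1-/- embryos, against 8.43, 8.20 and 8.58 in RFC1+/+ embryos. It rose 1.43-fold (0.52 ± 0.10 on the log2 scale, SE, limma adjusted p = 0.0346). *Gata4*, its partner in endoderm and heart, measured 6.27, 6.45 and 6.42 in RFC1-/- embryos and 5.64, 5.83 and 5.94 in RFC1+/+ embryos. It rose 1.49-fold (0.57 ± 0.10 on the log2 scale, SE, limma adjusted p = 0.0252). Neither GATA call held without litter 1 (adjusted p = 0.145 for *Gata6* and 0.165 for *Gata4* from limma) or without litter 2 (adjusted p = 0.132 and 0.0881 from limma).

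*Sox17* and *Hhex* rose by similar amounts. *Sox17*, an SRY-box factor of endoderm and arterial endothelium, measured 9.81, 9.73 and 10.04 in RFC1-/- embryos and 8.38, 8.39 and 8.78 in RFC1+/+ embryos. It was 2.54-fold higher with the smallest standard error relative to its size (1.35 ± 0.10 on the log2 scale, SE, limma adjusted p = 0.00342). The litters differed little for this gene, at 1.43, 1.35 and 1.26. *Hhex*, a homeobox gene of anterior visceral endoderm, liver bud and vessels, measured 9.20, 8.94 and 9.15 in RFC1-/- embryos and 7.54, 7.78 and 8.35 in RFC1+/+ embryos. Its RFC1-/- embryos were close together while its RFC1+/+ embryos spread, and it was 2.31-fold higher (1.21 ± 0.17 on the log2 scale, SE, limma adjusted p = 0.0125).

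*Hnf4a*, the nuclear receptor that drives apolipoprotein and coagulation factor genes, had the largest mean difference of the 8 on its brightest probe set, and the largest spread among RFC1-/- embryos. It measured 8.13, 7.43 and 9.20 in the RFC1-/- embryos of litters 1, 2 and 3, against 6.73, 6.48 and 6.12 in the RFC1+/+ embryos. The standard deviation was 0.89 among RFC1-/- embryos and 0.30 among RFC1+/+ embryos (n = 3 each), while for the other 7 genes it stayed between 0.10 and 0.26 among RFC1-/- embryos. *Hnf4a* was 3.51-fold higher (1.81 ± 0.36 on the log2 scale, SE, limma adjusted p = 0.0395), and the litter differences were 1.41, 0.95 and 3.08. Without litter 3 its log2 difference was 1.18, below those of *Foxa1*, *Hhex* and *Sox17* (1.43, 1.41 and 1.39). Averaged over its 4 probe sets it was 0.89, below the 4 genes *Foxa1*, *Sox17*, *Hhex* and *Foxa2*, and did not pass (limma adjusted p = 0.0784).

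Probe sets of one gene did not all move. Of the 15 probe sets, 7 rose at an adjusted p under 0.05 over all 45101, where 1.87% of all probe sets rose and 0.882% fell, and 2 of these were those of *Sox17* (1429177_x_at and 1421657_a_at). Both *Sox17* probe sets gave a log2 difference of 1.35. The suffix _x_at of the brighter one, like the _s_at of the brightest *Hnf4a* probe set, marks probes that may also match other transcripts, and 1421657_a_at carries no such mark. In 10 probe sets the RFC1-/- embryos lay above the RFC1+/+ embryos without overlap, as in 9.81% of all probe sets, and in none below, as in 11.5%. *Gata4* differed by 0.02 on 1418864_at, where all embryos lay under the yardstick. For *Gata6*, 1425463_at differed by 0.41 with overlapping groups (limma adjusted p = 0.340 over all probe sets) and 1443081_at by -0.03, although both lay above the yardstick. Among the 4 probe sets of *Hnf4a*, 1427000_at measured 4.31, 3.93 and 5.53 in RFC1-/- embryos, against 3.30, 3.26 and 3.18 in RFC1+/+ embryos. Its log2 difference was 1.34 (SE 0.29, limma adjusted p = 0.0663 over all probe sets), again with litter 3 the largest. The remaining 2, 1450447_at and 1421983_s_at, differed by 0.13 and 0.25 and overlapped between groups. Of the 15 probe sets, 3 were dim throughout, and 10 had enough variation for the 1.5-fold filter in the methods, which left out the brightest probe sets of *Gata4* and *Gata6*.

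**Figure D2:**
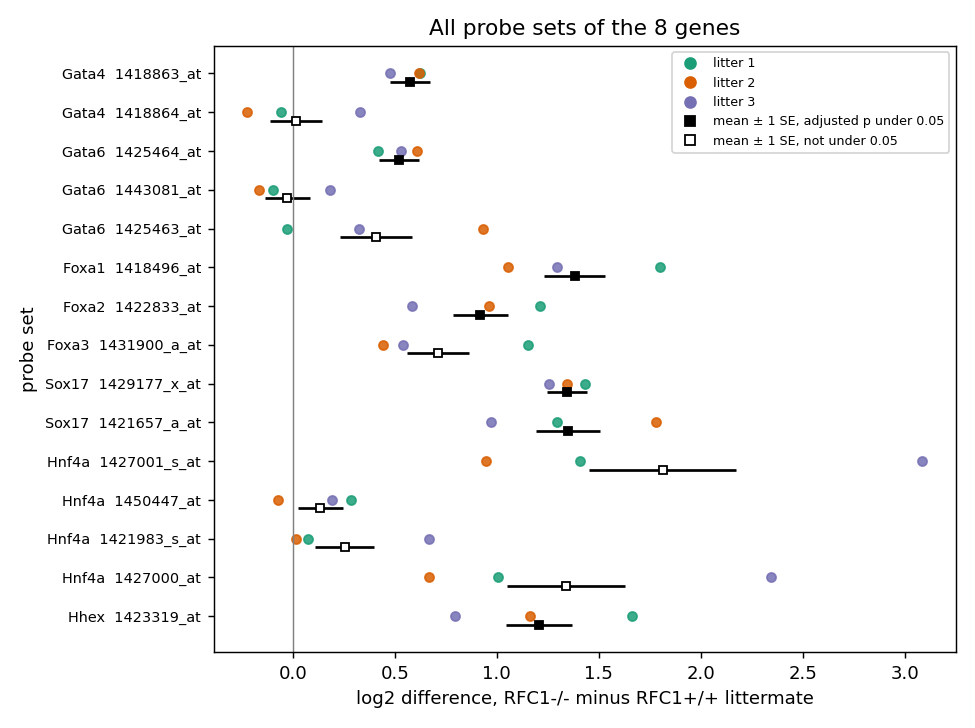
Log2 difference, RFC1-/- minus RFC1+/+ littermate, in each litter (x axis) for all 15 probe sets of the 8 genes (y axis), with coloured points for litters. Squares are means with 1 standard error from limma, filled where the adjusted p over all probe sets is under 0.05, which holds for 7 probe sets.

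The next question was whether the regulators rose by as much as a list of secreted targets. This name covers textbook targets of HNF4, FOXA, GATA or HNF1 factors and other plasma proteins made by the same epithelium. Control of each of them by the 8 factors was not tested. The list held 32 secreted proteins of yolk sac and liver, of which 30 were measured. At an adjusted p under 0.05, 21 rose and none fell, where 3.67% of all genes rose and 1.65% fell. The list was drawn up with results of these samples known and holds genes that the study had named from them, such as *Apoa1*, *Ttr* and *Rbp4*. It is thus not independent evidence of a direction. The median log2 difference of the targets was 1.89, against 1.06 for the 8 factors. No factor exceeded that median, and 15 targets exceeded the largest factor, *Hnf4a*. *Apoa1*, the main protein of high density lipoprotein, measured 11.75, 10.46 and 12.46 in RFC1-/- embryos, against 7.79, 6.17 and 5.35 in RFC1+/+ embryos, a log2 difference of 5.12 (standard error 0.55). *Apob*, *Apoc2* and *Spp2*, which encode proteins of lipoproteins and a secreted phosphoprotein, followed with 4.81, 4.15 and 4.11. At the other end, *Vtn*, *Apoh*, *Alb* and *Ahsg* had log2 differences of 0.31, -0.06, -0.07 and -0.21 and did not pass (adjusted p between 0.144 and 0.914 from limma). *Alb*, the albumin gene that fetal liver later expresses at a high level, measured between 4.49 and 4.69 in RFC1-/- embryos and between 4.50 and 4.86 in RFC1+/+ embryos, all under the odorant receptor yardstick. Of the 30 targets, 11 had an RFC1+/+ mean under the yardstick, and a difference from such a level can be compressed. With 3 litters a two-sided exact sign-flip test cannot go below p = 0.25, so the gap between factors and targets is given without a test.

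Surface and cytoplasmic products of the same epithelium were higher too. All 14 on the list rose, where 3.67% of all genes did, with a median log2 difference of 2.44. The list was drawn up with results of these samples known and holds genes that the study had named from them, such as *Cubn*, *Dab2* and *Fabp1*, so it is not independent evidence of a direction. *Cubn*, the cubilin receptor, *Slc2a2*, a glucose transporter, *Slc7a9*, an amino acid transporter, and *Amn*, the membrane anchor of cubilin, rose by 5.15, 4.81, 3.63 and 3.40 on the log2 scale. The RFC1+/+ means of *Slc2a2*, *Slc7a9* and *Amn*, at 4.76, 4.59 and 4.96, lay under the yardstick, so their differences can be compressed and their order is not settled. The smallest rises were 0.82 for *Lrp2* (megalin), 1.31 for *Cdh1* (E-cadherin), 1.63 for *Fabp1* (a fatty acid binding protein) and 1.68 for *Dab2* (an endocytic adaptor), within the range of the 8 factors. The RFC1+/+ mean of *Fabp1*, at 4.41, also lay under the yardstick, so its place among these is not settled.

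**Figure D3:**
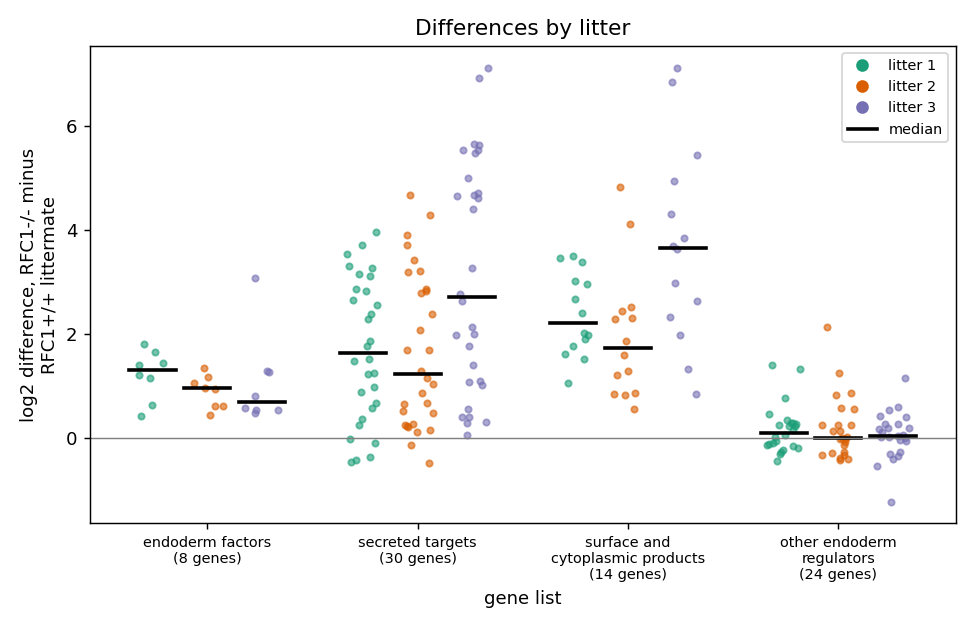
Log2 difference, RFC1-/- minus RFC1+/+ littermate (y axis) of each gene in 4 lists (x axis), with a column of points for each of the 3 litters and a black bar for the median. The median of the 8 endoderm factors was 1.31, 0.95 and 0.69 in litters 1, 2 and 3, while that of the 30 secreted targets was 1.64, 1.22 and 2.71.

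The litters ranked differently for the factors and for the secreted targets. Litter 3 had the largest difference for 26 of the 30 targets and 11 of the 14 surface and cytoplasmic products, where this was so for 36.9% of all genes. Among the factors it did so only for *Hnf4a*, while litter 1 had the largest difference for 6 genes and litter 2 for *Gata6*. The median of the factors minus that of the targets was thus -0.33 and -0.27 in litters 1 and 2, and -2.02 in litter 3. On the means it was -0.82 over 3 litters and -0.26 without litter 3. In litters 1 and 2 the factors and the targets had median folds of 2.48 and 3.12, then 1.94 and 2.33, and in litter 3 of 1.61 and 6.53. In each of the 3 litters, 14 of the 30 targets exceeded the largest factor of that litter. The target medians take in 9 targets that did not pass. The 21 that passed, picked by these same values, had a median log2 difference of 3.21 over the 3 litters.

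Both groups of embryos entered into this order. Among RFC1-/- embryos, that of litter 3 had the highest level for 26 of 30 targets and for 3 of the 8 factors, *Gata6*, *Sox17* and *Hnf4a*. This was so for 36.0% of all genes. Among RFC1+/+ embryos, that of litter 3 had the highest level of 7 factors, all but *Hnf4a*, where this was so for 37.4% of all genes, and of 3 of the 30 targets. It was also so for 9 of 13 parietal endoderm, 7 of 10 gut tube, 8 of 12 heart and 7 of 11 endothelial genes described below. On other lists it was so for 2 of 7 notochord and floor plate, 1 of 11 neural tube and 0 of 9 primitive erythroid genes. The RFC1+/+ embryo of litter 1 had the highest level of *Hnf4a* and of 26 targets. The litter with the highest level was thus the same for *Hnf4a* as for most targets in both groups, and it was so for none of the other 7 genes. The order rests on 1 pair of embryos in each litter, and no test of it was made.

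**Figure D4:**
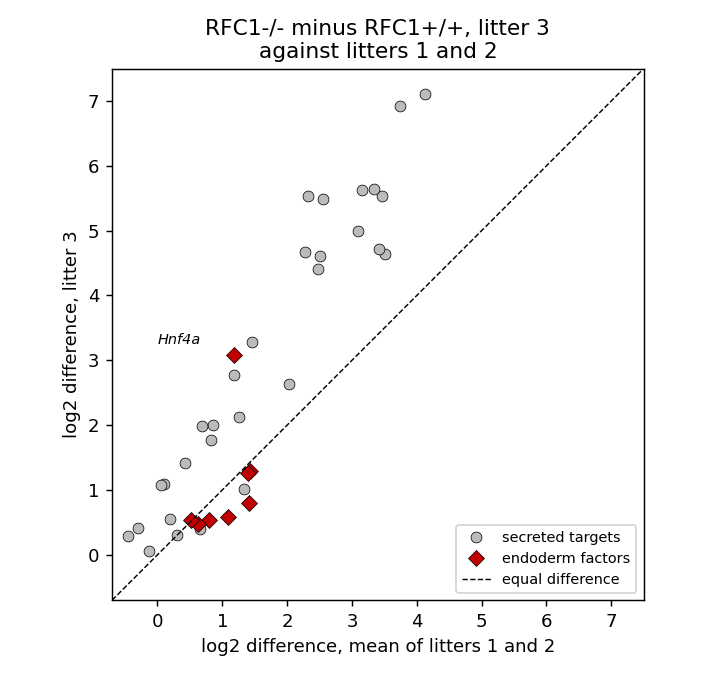
Log2 difference in litter 3 (y axis) against the mean log2 difference of litters 1 and 2 (x axis) for the 30 secreted targets (grey circles) and the 8 endoderm factors (red diamonds), with a dashed line of equal difference. Litter 3 lay above the mean of the other litters for 27 of the 30 targets and for 2 of the 8 factors, of which *Hnf4a* stands apart.

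Promoter sequences show where the letters that forkhead proteins recognise occur among these genes. The stretch from 250 bases before to 50 bases after each start in RefSeq (GRCm38.p6) was searched on both strands for TGTTTAC or TGTTTGC, letters of the forkhead motif, chosen after the values were seen. Of 30 targets, 26 had an entry, and 11 of these (42.3%) held a match, against 9.47% of 27025 genes. Textbook targets of FOXA factors were put on the target list by choice, so this share is not independent evidence of forkhead control. Of the factors, *Foxa1*, *Foxa2*, *Foxa3*, *Hnf4a* and *Hhex* had an entry, and *Foxa1* held a match. The windows below, read along the gene's own strand with 20 bases on either side and the match in capitals, are those of the 2 targets with the largest rise (*Apoa1* and *Apob*), of *Apoa2* and *Afp*, which also rose, of *Alb*, which was not shown to differ, and of *Foxa1* itself. A match is a description of these letters and not a shown site.
Apoa1: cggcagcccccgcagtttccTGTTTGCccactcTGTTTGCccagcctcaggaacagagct
Apob: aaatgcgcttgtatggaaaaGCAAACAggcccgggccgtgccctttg
Apoa2: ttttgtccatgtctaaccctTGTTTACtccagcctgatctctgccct
Afp: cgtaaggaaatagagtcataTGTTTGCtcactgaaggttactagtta
Alb: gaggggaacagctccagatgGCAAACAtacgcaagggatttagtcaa
Foxa1: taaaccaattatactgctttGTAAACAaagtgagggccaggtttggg

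These windows lie upstream of the start, at chr9:46228522-46228581 (plus strand) for *Apoa1*, chr12:7977536-7977582 (plus) for *Apob*, chr1:171224957-171225003 (plus) for *Apoa2*, chr5:90490639-90490685 (plus) for *Afp*, chr5:90460722-90460768 (plus) for *Alb* and chr12:57546226-57546272 (minus) for *Foxa1*. *Apoa1* held the motif at 2 places, and in *Apob*, *Alb* and *Foxa1* it was on the opposite strand, as GCAAACA or GTAAACA. The log2 differences of these genes were 5.12, 4.81, 3.39, 3.12, -0.07 and 1.38 in the order printed. The match did not divide the targets by their response: the median log2 difference was 2.23 for the 11 with a match, which ran between -0.21 and 5.12, and 1.71 for the 15 without. The GATA letters AGATAA were found in 4 of the 26 targets (15.4%), against 12.7% of all genes, and in *Foxa2* and *Hnf4a* among the factors. The HNF4 letters CAAAGTCC were in none of the 26, against 1.63% of all genes, which says only that this spelling is not in these windows.

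Other regulators of endoderm were taken from a list of 26 genes, of which 24 were measured. Of these, 2 rose and none fell, where 3.67% of all genes rose and 1.65% fell, and the median log2 difference was -0.02, against -0.01 over all genes. The difference between this list and the 8 factors was not tested. *Sox7*, a close relative of *Sox17*, rose by 1.24 on the log2 scale (SE 0.10, limma adjusted p = 0.00414). *Prdm1*, a zinc finger repressor of visceral endoderm and germ cells, rose by 0.73 (SE 0.10, limma adjusted p = 0.0136). *Cdx2*, a factor of hindgut and trophoblast, had log2 differences of 1.40, 2.13 and -0.35 in litters 1, 2 and 3 and did not pass, nor did *Gata5* with a mean of 0.56 (adjusted p = 0.0665 from limma). The lowest values were those of *Otx2*, *Nr0b2*, *Zfpm1* and *Lhx1*, with -0.32, -0.17, -0.15 and -0.14, none of them past the test. Of the 24 genes, 10 lay under the yardstick in all embryos.

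Markers of other tissues, some of them tissues in which these factors act, differed between the groups on some lists and mostly did not pass on others. Their part in the values above was not tested. The markers were chosen after their values were seen. Over all genes, 3.67% rose and 1.65% fell, and the counts below stand beside these shares. Of 12 heart genes, 8 rose, with a median log2 difference of 0.61, and the log2 of their summed signal lay between 15.10 and 15.16 in RFC1-/- embryos and between 14.36 and 14.65 in RFC1+/+ embryos. Of 11 endothelial genes, 7 rose, with a median of 0.60, and the summed signal lay between 11.64 and 11.78 in RFC1-/- embryos and between 10.97 and 11.16 in RFC1+/+ embryos. Single genes ran between 0.14 and 0.97 on the heart list and between 0.07 and 0.92 on the endothelial list. Of 13 genes of parietal endoderm and its basement membrane, 8 rose, with a median of 0.57 and summed signals between 14.33 and 14.46 in RFC1-/- embryos and between 13.43 and 13.76 in RFC1+/+ embryos. The 8 were *Krt8*, *Krt18*, *Krt19*, *Sparc*, *Col4a1*, *Col4a2*, *Lamb1* and *Lamc1*. *Thbd*, *Pth1r*, *Lama1*, *Plat* and *Snai1* did not pass, with log2 differences of 0.42, 0.41, 0.34, 0.03 and -0.22. Of 7 measured genes of notochord and floor plate, *Shh* rose by 0.64 and the other 6 did not pass (median of the 7 genes 0.06). Of 10 gut tube genes, *Nepn*, *Pyy* and *Pax9* rose and 7 did not pass. Summed signals of the secreted targets lay between 14.54 and 15.96 in RFC1-/- embryos and between 11.51 and 12.75 in RFC1+/+ embryos. Of 4 measured trophoblast genes none passed. All 11 genes of the neural tube list and 8 of 9 primitive erythroid genes fell, where 1.65% of all genes did, with medians of -1.57 and -3.17.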

How the data were processed

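RNA of 3 RFC1-/- and 3 RFC1+/+ embryos was measured on 1 array each. The authors deposited log2 values for 45101 probe sets, made by RMA (background correction, quantile normalization, median polish); no source used here gives versions. Genotype and litter came from the labels, and 0 columns were left unused. Differences were fitted with limma 3.58.1 in R 4.3.3, with the litter as a block and moderated variances, over 18194 genes (for each symbol the probe set of highest mean) and over all probe sets, adjusted by Benjamini-Hochberg, called under 0.05. The block comes from the littermate design in the labels. Deviations from the group mean correlated within litters at 0.10, -0.05 and -0.15. Of all probe sets, 34958 had 1 symbol in the platform annotation, 932 several and 9211 none. The methods' variation filter was an alternative, since it removes members by the values compared. The methods' t-test, a random-variance paired test, was rebuilt here with its prior fitted on the features tested, and that name stands for the rebuilt version.

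On simulated data for this comparison (18194 genes), limma recovered 63 of 100 genes changed by 1 log2 unit and 90 of 100 changed by 2. Every member and probe set is named; of the endoderm lists, the 4 largest and 4 smallest differences and any gene that fell; and the 3 genes most like each member. Genes printed for their promoters and markers of other tissues were chosen after their values were seen. The members and lists were chosen with earlier results of these data known. Python 3.11.15, pandas 2.3.3, numpy 2.4.6 and matplotlib 3.10.9 were used for sequences and plots.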

Additional observations from a re-analysis of the deposited data

How the results depend on the processing

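No difference of the 8 genes changed sign under an alternative, of which the block, the variance trend, the test and the level of the adjusted p cannot change a difference. Without the litter as a replicate block, 7 of the 8 genes, 7 of the 15 probe sets and 19 of the 30 targets rose, and *Gata6* did not pass (adjusted p = 0.0505 from limma). Of all 18194 genes, 748 rose there. With the litters left out in turn, between 3 and 8 genes rose, between 2 and 9 probe sets and between 17 and 22 targets, and the median of the factors minus that of the targets ran between -1.26 and -0.26. Between 238 and 867 of all 18194 genes rose in these fits. With the 1.5-fold variation filter, 4 of 7 factor genes were called, where 294 of all 2144 genes rose. The filter moved the gap between factors and targets to -1.89 over 7 factors and 24 targets. *Gata6* stood there on 1425463_at, since its brightest probe set was left out. With the probe sets of a gene averaged, 4 of 8 were called, where 547 of all 18194 genes rose. The factor genes called were 6 with a second quantile normalization (657 of all genes rose). They were 7 each with arrays centred on their median, with the methods' t-test and with the probe set of largest SD (559, 602 and 687 of all genes). At the 0.001 level of the methods, without their filter, limma called 0 genes, 0 probe sets and 0 targets, where 8, 10 and 25 had an unadjusted p under 0.05, and the methods' t-test also called 0 of each. No gene or probe set of the whole array passed there with either test. From limma the smallest adjusted p was 0.00161 over all genes and 0.00144 over all probe sets. From the methods' t-test it was 0.00322 and 0.00174. With filter and level together, chosen after seeing the data, limma called 1 gene, *Hnf4a* (adjusted p = 1.7e-05), 1 probe set and 17 targets of 24. Of all 2144 filtered genes, 105 rose. The methods' t-test, as rebuilt here, called 0 genes, 0 probe sets and 0 targets, where 6 of 7, 8 of 10 and 22 of 24 had an unadjusted p under 0.05. It called 0 of all 2144 filtered genes higher, and its smallest adjusted p over the 2982 filtered probe sets was 0.00226. The study reported genes at this filter and level, *Apoa1*, *Ttr* and *Rbp4* among them, so the rebuilt test does not reproduce its calls. The other alternatives were an intensity trend and the omission of probe sets whose highest array lay under the median of all values, a cut other than the yardstick. They called every measured factor gene (8 of 8 and 7 of 7), but the omission moved the gap to -1.45 over 7 factors and 26 targets. Over all genes, 734 of 18194 and 604 of 12162 rose. *Foxa3* passed under 4 of its 15 alternatives and *Gata6* under 7 of 16, and the causes were not tested.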

Other observations

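For each factor the genes whose levels ran most alike over the 6 arrays were listed, among 12368 genes above the odorant receptor yardstick (12369 for *Foxa3*), as a description that the shared genotype difference alone can produce. *Sox17* ran closest to *Sox7*, its SoxF relative (Pearson r = 0.999 over 6 arrays), then *Magel2* and *Pkp2*. *Hhex* ran closest to *Kit*, the stem cell factor receptor (r = 0.9988), then *Aff4* and *Grb7*, and *Gata6* closest to *Kitl*, the ligand of that receptor (r = 0.9989), then *Ptgr2* and *Ifi27l2b*. The genes nearest to *Hnf4a* were *Slc16a9*, *Reep6* and *Tmem37*, which rose by 1.71, 1.93 and 1.18 on the log2 scale (adjusted p = 0.0401, 0.0335 and 0.0313 from limma). Those nearest to *Gata4* were *Tom1*, *Tagln* and *Pdzd2*, and those nearest to *Foxa2* were *Pgam2*, *Actn2* and *Frem2*, of which *Pgam2* and *Actn2* are muscle genes. *Foxa1* ran closest to *Wnk4*, *Ifitm3* and *Ppcdc*, and *Foxa3*, at its dim level, to *Bnip3*, *P4ha2* and BC028528.

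Among the 8 factors themselves, the correlation over the 6 arrays was between 0.749 and 0.868 for *Hnf4a* with each of the other 7, and between 0.850 and 0.973 for all other pairs. The lowest value was that of *Hnf4a* with *Foxa2*. These values share the arrays and the genotype groups.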
